A study of Mus musculus with 9 samples.

Results

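The genes described here are 38 mouse genes of the extracellular matrix and of hepatic stellate cells, taken from a fixed list by symbol, among the 52550 genes of each deposited table. All 38 were found, and 36 passed the filter on low values (a minimum of 1 FPKM in 3 or more libraries of the 9), which kept 12014 genes in all; Reln and Lox did not pass. FPKM is a fragment number divided by gene length and by the mapped reads of the library. The series title concerns transcripts that could mark hepatocellular carcinomas in which p53 and Tsc1 have both lost their function. Liver tissue from 3 genotypes was analysed, with 3 libraries of each, all from mice aged 320 days. The p53+/- livers (here p53-heterozygous) carried 1 disrupted Trp53 allele, and their labels name no Tsc1 allele and no Cre. The Tsc1fl/fl;Alb-Cre livers (Tsc1-deleted) carried Tsc1 alleles that Cre recombinase can remove, with Cre under the albumin promoter, which is active in hepatocytes, so stellate cells, portal fibroblasts and endothelial cells were not its target. The p53+/-;Tsc1fl/fl;Alb-Cre livers (double-mutant) carried both changes. No group without any of these alleles was analysed here. The labels do not say whether a group's libraries are separate mice; p-values therefore reflect spread among these libraries, which may be technical.

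Extracellular matrix is the protein scaffold between cells. Most of it in liver comes from hepatic stellate cells, which in the resting state store vitamin A beside the sinusoids and, once activated, take on the features of contractile myofibroblasts and secrete fibrillar collagen. Portal fibroblasts, vascular smooth muscle, endothelial cells, mesothelial cells and injured hepatocytes also make some of these proteins. Scarring of the liver, or fibrosis, is an excess of fibrillar collagen together with crosslinking enzymes that stiffen it and inhibitors that protect it from proteases.

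Several libraries stood apart before any of the 38 genes was considered. In p53-heterozygous libraries 1 and 2, nuclear protein-coding genes took 7.4% and 6.6% of the signal and mitochondrial genes 68.0% and 55.9%; in the other 7 libraries nuclear protein-coding genes took 61.8% to 87.3%. The depth, estimated from the value that 1 read gives, was about 10700000 to 18300000 reads a library, of which about 1000000 and 700000 fell on nuclear protein-coding genes in p53-heterozygous libraries 1 and 2 and 8300000 to 15000000 in the others. Each value was therefore examined as deposited and after a nuclear rescaling, which gives every library an equal sum of FPKM over the protein-coding genes of the nuclear genome. In p53-heterozygous library 3 the summed level of 16 hepatocyte markers was 988 FPKM, against 5683 and 5682 FPKM in libraries 1 and 2 and 38354 to 57905 FPKM in the other 6; Alb stood at 149.5 FPKM there and at 7971 to 12314 FPKM in those 6. Those values are as deposited. After nuclear rescaling the hepatocyte markers summed to 45364, 48970 and 1023 FPKM in p53-heterozygous libraries 1, 2 and 3 and to 29539 to 44797 FPKM in the other 6. In p53-heterozygous library 3 the mesothelial markers summed to 465 FPKM as deposited, against at most 49.4 FPKM in any other library, with Msln at 243 FPKM. After nuclear rescaling their sum there was 481.3 FPKM, with Msln at 251.4 FPKM and Krt19, also used here as a bile duct marker, at 216.9 FPKM. In double-mutant library 3 Krt19 made 37.6 of 38.3 FPKM. Of the 7 mesothelial markers 1 passed the filter. The label of p53-heterozygous library 3 is liver, as for all libraries. Results are given with and without these libraries where they decide them.

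Promoter sequences are shown for 4 of the genes whose levels the results turn on: Ecm1, Des and Lrat, which were higher in all p53-heterozygous libraries after nuclear rescaling, and Col3a1, a fibrillar collagen for comparison. Of the 38 genes, 25 were in the RefSeq promoter table (build GRCm38.p6), and these 4 windows are free of annotated exons. Each line gives the 250 bases before the start of the gene, 5′ to 3′ on the gene's strand, with capitals marking matches, on either strand, to the CCAAT box, to the sequence TATAAA of a TATA box and to the GC box GGGCGG. The windows are chr3:95739570-95739819 on the minus strand for Ecm1, chr1:75360042-75360291 on the plus strand for Des, chr3:82903975-82904224 on the minus strand for Lrat and chr1:45311288-45311537 on the plus strand for Col3a1.
Ecm1: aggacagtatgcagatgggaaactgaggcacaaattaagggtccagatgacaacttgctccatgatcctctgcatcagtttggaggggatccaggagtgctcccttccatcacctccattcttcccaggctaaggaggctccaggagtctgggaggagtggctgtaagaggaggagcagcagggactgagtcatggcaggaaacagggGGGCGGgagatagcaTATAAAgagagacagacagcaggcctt
Des: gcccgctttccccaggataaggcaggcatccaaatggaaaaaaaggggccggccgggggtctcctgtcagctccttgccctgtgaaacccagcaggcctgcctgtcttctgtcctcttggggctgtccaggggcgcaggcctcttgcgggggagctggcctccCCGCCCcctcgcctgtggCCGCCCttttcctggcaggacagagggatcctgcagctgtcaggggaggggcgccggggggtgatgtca
Lrat: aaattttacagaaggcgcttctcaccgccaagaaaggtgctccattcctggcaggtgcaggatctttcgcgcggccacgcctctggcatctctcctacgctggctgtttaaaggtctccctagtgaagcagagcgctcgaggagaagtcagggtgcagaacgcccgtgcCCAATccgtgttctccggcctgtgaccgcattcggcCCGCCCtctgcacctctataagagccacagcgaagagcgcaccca
Col3a1: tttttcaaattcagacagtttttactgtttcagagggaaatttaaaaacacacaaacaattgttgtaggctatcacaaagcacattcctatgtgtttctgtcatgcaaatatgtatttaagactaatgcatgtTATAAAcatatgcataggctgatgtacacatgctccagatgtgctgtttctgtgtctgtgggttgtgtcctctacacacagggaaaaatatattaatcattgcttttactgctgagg
The Ecm1 window held TATAAA from 27 to 22 bases before the start and GGGCGG from 42 to 37 bases before it. In Des, GGGCGG lay on the opposite strand, from 87 to 82 and from 69 to 64 bases before the start. Lrat held CCAAT from 81 to 77 bases before the start and GGGCGG on the opposite strand from 45 to 40. The TATAAA match of Col3a1 lay from 117 to 112 bases before its start. The same 250 bases before the start were searched in all 32851 promoter windows of the table. Of these windows, 33.8% held CCAAT, 12.4% held TATAAA and 32.7% held the GC box. Of the 25 listed genes in the table, 8 held CCAAT, 4 held TATAAA (Col3a1, Ecm1, Postn and Vim) and 16 held GGGCGG. The CArG box, the motif that serum response factor binds in smooth muscle genes, was found in 0 of the 25 and in 1.47% of all windows. These matches describe letters only.

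Summed over the 38 genes, the level as deposited was 43.2, 28.6 and 2295 FPKM in the p53-heterozygous libraries 1, 2 and 3, then 253, 225 and 547 FPKM (Tsc1-deleted) and 513, 466 and 695 FPKM (double-mutant). After nuclear rescaling the sums were 344.5, 246 and 2376 FPKM, then 196, 183 and 406 FPKM, then 383, 359 and 539 FPKM. On both scales p53-heterozygous library 3 was the highest of the 9, and the other 2 libraries of its group were the lowest as deposited and, with the rescaling, lay above Tsc1-deleted libraries 1 and 2 and below the rest. The groups overlapped on both scales.

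**Figure D1:**
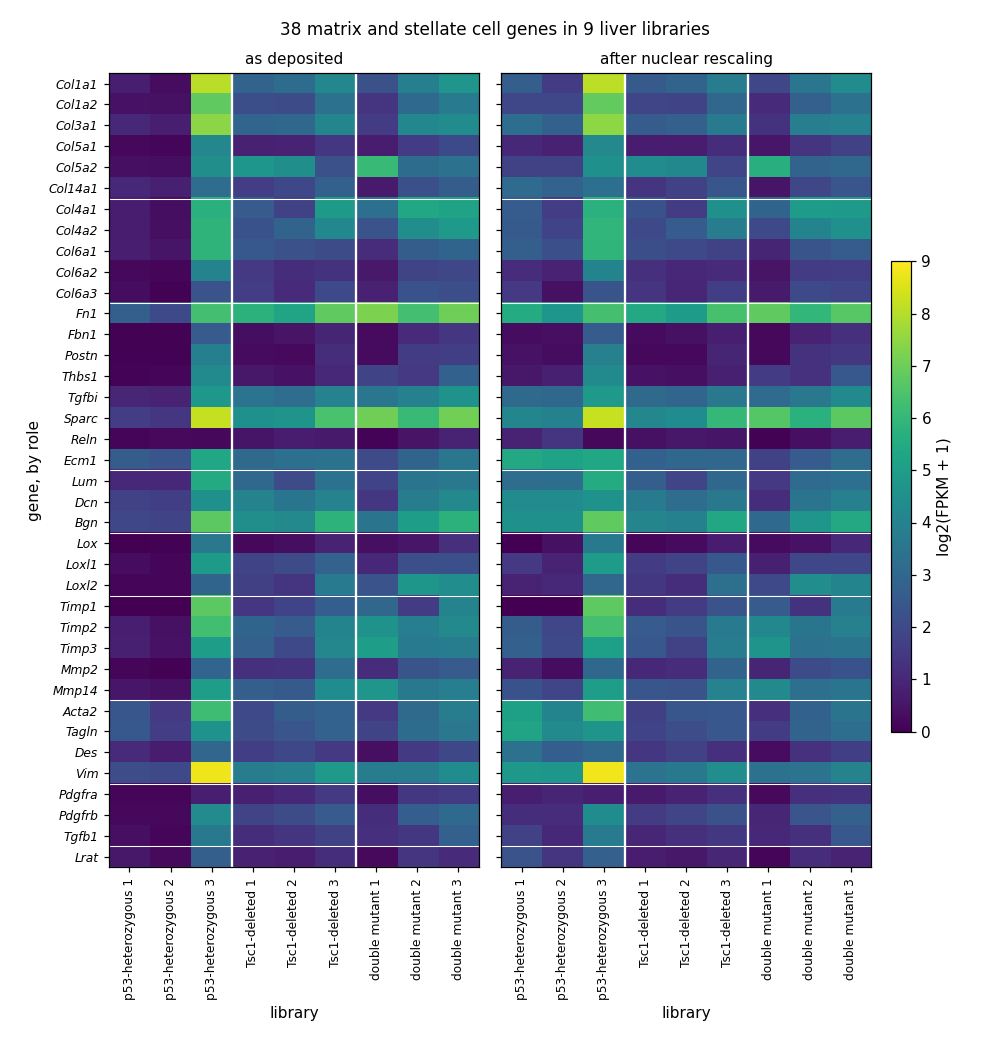
Level of each of the 38 genes, as log2(FPKM + 1), in each of the 9 libraries, as deposited (left) and after nuclear rescaling (right); rows are genes ordered by role and columns are libraries. The column of p53-heterozygous library 3 is the brightest (highest) for most genes, and libraries 1 and 2 of that group are the darkest (lowest) for many genes as deposited and brighter after rescaling.

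Among the fibrillar collagens, which form the tensile fibres of scar tissue, Col1a1 encodes the major chain of type I collagen. As deposited it read 0.707, 0.228 and 265 FPKM in p53-heterozygous libraries 1, 2 and 3, then 6.23, 7.98 and 17.5 FPKM (Tsc1-deleted libraries) and 3.74, 13.9 and 24.8 FPKM (double-mutant libraries). Library 3 of the p53-heterozygous group was far above every other, and its 2 companions were the lowest of all. The first values rest on about 65 and 16 reads, the third on about 23000. Col1a2, the other chain of type I collagen, read 0.353, 0.323 and 109.3 FPKM (p53-heterozygous), then 3.45, 3.23 and 9.16 FPKM (Tsc1-deleted) and 1.54, 7.50 and 11.8 FPKM (double-mutant). Col3a1, the chain of type III collagen that is laid down with type I, read 1.07, 0.685 and 172 FPKM (p53-heterozygous), then 6.72, 7.00 and 16.6 FPKM (Tsc1-deleted) and 2.04, 17.4 and 19.1 FPKM (double-mutant). Both followed the order of Col1a1 in the main: high in p53-heterozygous library 3, low in double-mutant library 1. Col5a1, a chain of the type V collagen that starts fibrils, ranged from 0.0898 to 17.1 FPKM, and Col14a1, a collagen that sits on the fibril surface, ranged from 0.56 to 8.40 FPKM, each with its highest value in p53-heterozygous library 3.

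Col5a2, the second chain of type V collagen, did not follow its partner. As deposited it read 0.294, 0.274 and 21.03 FPKM (p53-heterozygous), then 25.7, 21.6 and 3.66 FPKM (Tsc1-deleted) and 65.7, 8.12 and 9.13 FPKM (double-mutant). Double-mutant library 1, which was low for most collagens, held the highest value of all 9, and Tsc1-deleted libraries 1 and 2 came next. Within a library a ratio of FPKM values does not depend on the scaling, and the ratio of Col5a2 to Col5a1 was 33.0 and 26.6 in Tsc1-deleted libraries 1 and 2 and 103 in double-mutant library 1, against 1.23 to 3.99 in the other 6 libraries. Col5a2 lies next to Col3a1 on chromosome 1 on the opposite strand, with 0 annotated genes between them, and the ratio of Col5a2 to Col3a1 was 3.82, 3.08 and 32.2 in those 3 libraries and 0.122 to 0.477 in the rest. These ratios ran across the genotypes: 2 of the 3 libraries were Tsc1-deleted and 1 was double-mutant.

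The ratios between the 2 chains of type I collagen and between Col4a1 and Col4a2 differed less than that of the type V pair. Col1a1 to Col1a2 ranged from 0.706 to 2.47 over the 9 libraries, with the lowest in p53-heterozygous library 2, where few reads cover either gene. Col4a1 to Col4a2 ranged from 0.379 to 2.18. Both genes of that pair overlap on opposite strands, and the labels do not state whether reads were counted by strand.

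**Figure D2:**
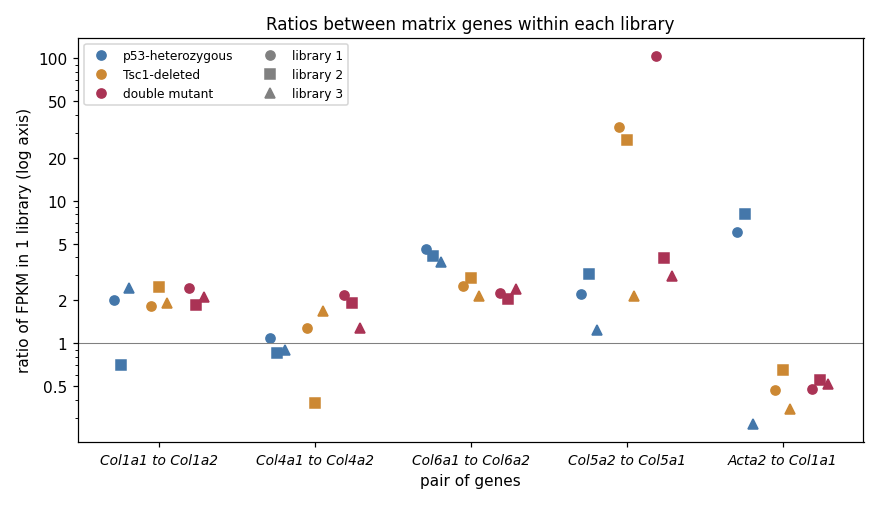
Ratio of FPKM values between pairs of matrix genes within each library, on a log axis; colours mark the 3 genotypes, marker shapes the library numbers, and the grey line a ratio of 1. The ratio of Col5a2 to Col5a1 reaches 103 in double-mutant library 1, and Col1a1 to Col1a2 stays between 0.706 and 2.47.

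The basement membrane collagens Col4a1 and Col4a2, which form the sheet under endothelium and around stellate cells, were high in p53-heterozygous library 3 and also in several libraries with Tsc1 deletion. Col4a1 read 0.653, 0.246 and 50.9 FPKM (p53-heterozygous), then 4.95, 2.40 and 29.2 FPKM (Tsc1-deleted) and 8.65, 39.7 and 35.6 FPKM (double-mutant). Each group thus spanned a wide range, and the groups overlapped. Type VI collagen forms beaded filaments around cells. Its chains Col6a1 and Col6a2 reached 56.8 and 15.2 FPKM in p53-heterozygous library 3 and at most 6.54 and 2.74 FPKM elsewhere, while the third chain, Col6a3, stood at 3.95 FPKM there and at 3.87 FPKM in double-mutant library 2. The ratio of Col6a1 to Col6a2 was 3.74 to 4.58 in the p53-heterozygous libraries and 2.03 to 2.85 in the other 6. In p53-heterozygous libraries 1 and 2 it rests on about 43 and 20 reads of Col6a1 and 18 and 9.1 reads of Col6a2. No ratio between genes was tested between the genotypes.

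Matrix glycoproteins link cells to the collagen network. Fn1 encodes fibronectin, which hepatocytes also secrete into plasma, and it was the most abundant listed gene in 5 of the 6 libraries with Tsc1 deletion. It read 5.67, 2.96 and 78.4 FPKM (p53-heterozygous), then 54.5, 37.6 and 109.7 FPKM (Tsc1-deleted) and 147, 78.6 and 129 FPKM (double-mutant). Sparc, a collagen-binding protein of remodelling tissue, read 2.09, 1.68 and 293 FPKM (p53-heterozygous), then 21.8, 24.2 and 83.8 FPKM (Tsc1-deleted) and 132, 67.7 and 136 FPKM (double-mutant). For both genes double-mutant library 1 was not low, unlike for most of the collagens. Thbs1, a glycoprotein that can activate latent TGF-beta, read 0.0622, 0.0871 and 18.3 FPKM (p53-heterozygous), then 0.479, 0.349 and 0.991 FPKM (Tsc1-deleted) and 2.59, 1.84 and 5.91 FPKM (double-mutant). All 3 double-mutant values lay above all 3 Tsc1-deleted values, and p53-heterozygous library 3 lay above both groups.

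Of the other glycoproteins, Tgfbi, a protein that TGF-beta induces, ranged from 0.831 to 26.9 FPKM, Fbn1, the main chain of microfibrils, from 0.0286 to 4.98 FPKM, and Postn, a matricellular protein of activated fibroblasts, from 0.0273 to 13.7 FPKM. All 3 were highest in p53-heterozygous library 3. Reln, a secreted glycoprotein that quiescent stellate cells make, stayed between 0.0574 and 0.817 FPKM and was lowest in double-mutant library 1. The small proteoglycans Dcn, Lum and Bgn bind collagen fibrils and space them. Dcn read 2.44, 2.22 and 22.1 FPKM (p53-heterozygous), then 15.2, 10.3 and 15.0 FPKM (Tsc1-deleted) and 1.65, 13.0 and 18.0 FPKM (double-mutant) as deposited. Lum reached 44.1 FPKM and Bgn 105.9 FPKM in p53-heterozygous library 3, against at most 11.2 and 55.0 FPKM elsewhere. Dcn thus stood out less in that library than Lum, and its lowest value was in double-mutant library 1.

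The lysyl oxidases crosslink collagen and elastin. Loxl2, which acts on the type IV and fibrillar collagens, read 0.109, 0.116 and 6.52 FPKM (p53-heterozygous), then 2.26, 1.55 and 12.02 FPKM (Tsc1-deleted) and 3.97, 26.2 and 20.2 FPKM (double-mutant). It was among the few listed genes that did not peak in p53-heterozygous library 3. Loxl1, which acts mainly on elastin, peaked there at 28.8 FPKM and reached at most 6.10 FPKM elsewhere, and the ratio of Loxl2 to Loxl1 was 4.01, 7.34 and 5.66 in the double-mutant libraries and 0.227 to 1.97 in the other 6, of which p53-heterozygous libraries 1 and 2 hold at most about 10 reads of either gene. Lox, the founding member of the family, was listed at 0 in p53-heterozygous library 1 and stood at 0.039 FPKM in library 2, at 11.1 FPKM in library 3 and at 0.136 to 1.30 FPKM in the other 6.

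The proteases Mmp2 and Mmp14 cut collagens, and Timp1, Timp2 and Timp3 inhibit them. Timp1 was listed at 0 in p53-heterozygous libraries 1 and 2 and read 105.2 FPKM in library 3, then 1.66, 2.497 and 5.37 FPKM (Tsc1-deleted) and 6.77, 1.95 and 15.3 FPKM (double-mutant). Timp3, which binds to the matrix, read 0.716, 0.345 and 32.1 FPKM (p53-heterozygous), then 5.73, 2.93 and 17.0 FPKM (Tsc1-deleted) and 32.1, 11.9 and 13.1 FPKM (double-mutant). Mmp14, a protease on the cell membrane, read 0.471, 0.316 and 31.3 FPKM (p53-heterozygous), then 5.56, 4.86 and 20.0 FPKM (Tsc1-deleted) and 24.9, 11.4 and 13.5 FPKM (double-mutant). For Timp3 and Mmp14, double-mutant library 1 was the highest of its group. Timp2, which also takes part in activating Mmp2, ranged from 0.325 to 76.7 FPKM, and Mmp2 itself from 0.0277 to 8.38 FPKM.

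Acta2, Tagln, Des and Vim are filament and contractile genes. Acta2 (smooth muscle actin) and Tagln (transgelin) mark myofibroblasts and smooth muscle, Des (desmin) marks rodent stellate cells and muscle, and Vim (vimentin) most mesenchymal cells and leukocytes. As deposited, Acta2 read 4.25, 1.83 and 72.4 FPKM (p53-heterozygous), then 2.94, 5.22 and 6.06 FPKM (Tsc1-deleted) and 1.80, 7.62 and 12.8 FPKM (double-mutant). Vim read 3.38, 2.98 and 432 FPKM (p53-heterozygous), then 12.8, 14.1 and 27.2 FPKM (Tsc1-deleted) and 12.8, 12.6 and 19.6 FPKM (double-mutant). The groups overlapped for both genes, with p53-heterozygous library 3 at the top and its companions the lowest for Vim. The ratio of Acta2 to Col1a1, which no scaling changes, was 6.01 and 8.03 in p53-heterozygous libraries 1 and 2 and 0.273 to 0.654 in the other 7 libraries.

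The receptors Pdgfra and Pdgfrb carry the signal of platelet-derived growth factor, the main mitogen of stellate cells, and Tgfb1 encodes the growth factor TGF-beta 1, which drives collagen synthesis. Pdgfrb read 0.156, 0.139 and 19.3 FPKM (p53-heterozygous), then 2.56, 3.31 and 4.94 FPKM (Tsc1-deleted) and 1.28, 5.40 and 7.53 FPKM (double-mutant). Pdgfra stayed low, at 0.0852 to 1.95 FPKM, and at 0.677 FPKM in p53-heterozygous library 3 it was below 5 of the 6 libraries with Tsc1 deletion. Tgfb1 reached 11.6 FPKM in that library and 0.122 to 5.69 FPKM in the others. Lrat, the enzyme that esterifies vitamin A for storage, read 0.499, 0.178 and 5.61 FPKM (p53-heterozygous), then 0.783, 0.609 and 1.28 FPKM (Tsc1-deleted) and 0.158, 1.60 and 1.11 FPKM (double-mutant). It too was highest in p53-heterozygous library 3 and lowest in double-mutant library 1.

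p53-heterozygous library 3 was the highest of the 9 for 31 of the 38 genes as deposited and for 30 after nuclear rescaling; it was the highest for 34% and 43.5% of all tested genes. Relative to the highest of the other 8 libraries, as deposited, the ratio was 15.9 for Vim, 10.7 for Col1a1, 9.28 for Col1a2, 9.02 for Col3a1, 8.68 for Col6a1, 8.59 for Lox and 6.90 for Timp1. The 7 genes that were not highest there were Col5a2, Loxl2, Pdgfra, Reln, Fn1, Mmp2 and Timp3. In the same library the markers of other cell types stood as follows: the 16 Kupffer cell and macrophage markers summed to 1868 FPKM against 32.2 to 692 FPKM elsewhere, the 10 smooth muscle markers to 50.5 FPKM against 2.22 to 21.7 FPKM, and the 14 endothelial markers to 98.1 FPKM against 6.86 to 59.4 FPKM. Of the resident Kupffer cell markers, Vsig4 was listed at 0 there, and of the sinusoidal and stellate markers Stab2 stood at 0.1695 FPKM and Tcf21 at 0.728 FPKM. The mesothelial marker Msln, at 243 FPKM, was at most 1.74 FPKM elsewhere. In bulk tissue, fewer cells of a type and less RNA per cell cannot be told apart, and the part of these cell types in the values of the 38 genes was not tested.

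Double-mutant library 1 differed from libraries 2 and 3 of its group in the opposite direction. It was the lowest of its group for 29 of the 38 genes as deposited and 30 after nuclear rescaling, where it was the lowest of its group for 20.6% and 23.1% of all tested genes. After rescaling it was the lowest of all 9 libraries for 20 of the 38, against 3.97% of tested genes. Divided by the mean of libraries 2 and 3, its rescaled level was 0.0874 for Postn, 0.0914 for Reln, 0.103 for Dcn, 0.108 for Col3a1, 0.113 for Lrat, 0.121 for Col14a1, 0.124 for Des and 0.187 for Col1a1. The genes that were highest in it within the group were Col5a2 (ratio 7.36), Timp3 (2.48), Mmp14 (1.94), Timp2 (1.42) and Fn1 (1.37). The 14 endothelial markers summed to 10.3 FPKM as deposited in that library and to 42.8 to 59.4 FPKM in the other 5 libraries with Tsc1 deletion, with Pecam1 at 0.158 FPKM and Cdh5 at 0.283 FPKM. Of the quiescent stellate cell markers, Tcf21 stood at 0.528 FPKM there against 4.11 to 5.01 FPKM in those 5, and Colec11 at 1.25 FPKM against 6.62 to 11.4 FPKM, while Rgs5 (66.2 FPKM) was not low; their 18-gene sum was 169 FPKM against 89.2 to 249.9 FPKM. The part of these cells in the low values was not tested. Tcf21, Colec11, Pecam1, Cdh5 and, elsewhere, Vsig4, Stab2, Myh11, Myocd and Thy1 were picked out after their values were seen.

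**Figure D3:**
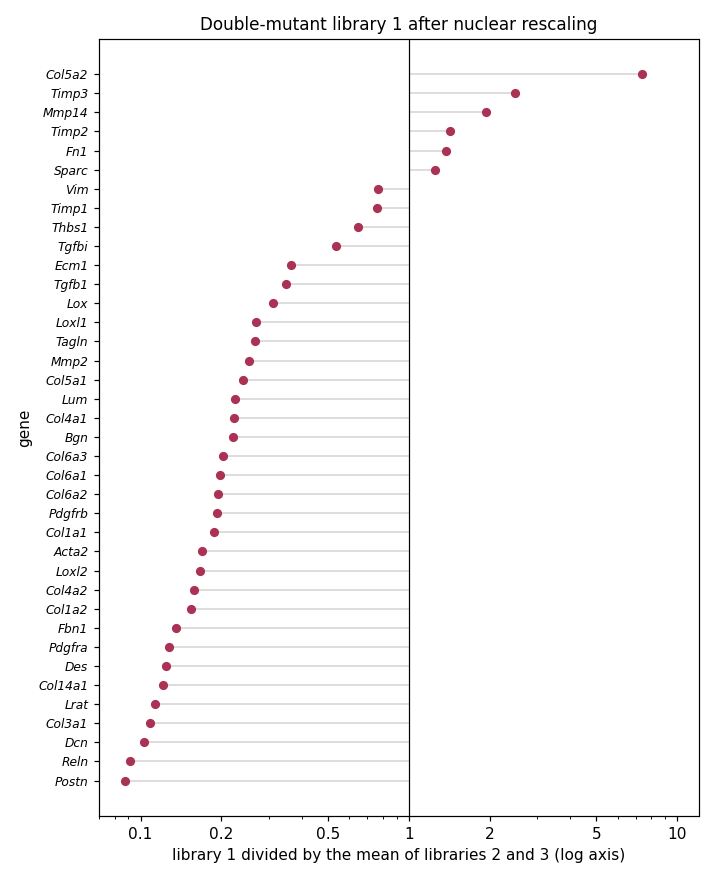
Level in double-mutant library 1 divided by the mean of double-mutant libraries 2 and 3 for each of the 38 genes after nuclear rescaling, on a log axis; the line marks a ratio of 1. Most genes lie to the left, down to 0.0874 for Postn, and Col5a2 lies farthest to the right at 7.36.

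Against the Tsc1-deleted livers, which share the hepatocyte deletion of Tsc1, the double-mutant livers differ by the loss of 1 Trp53 allele. Of the 36 tested listed genes, 0 were called at an adjusted p of 0.05 (limma, Benjamini-Hochberg over the 12014 tested genes). Among all tested genes 0.025% were called as deposited and 0.0166% after nuclear rescaling. With shares that low, a count of 0 does not set the listed genes apart from other genes. None of the listed genes was called under any of the 31 other settings run. At an unadjusted p under 0.05 the count was 0 of 36 on both scales, where 2.13% of all tested genes passed as deposited and 4.26% after rescaling. With only the 6 compared libraries in the fit it was 3 (Sparc, Thbs1 and Timp2) on either scale, where 11.5% and 12.8% of tested genes passed. The adjusted p was 1 for every listed gene as deposited and 0.882 to 0.999 after rescaling. Estimates were positive for 27 genes and negative for 9, with a median log2 change of 0.26 against 0.29 over all tested genes. After rescaling the medians were 0.24 and 0.25.

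The largest positive estimates were those of Loxl2, a log2 change in FPKM + 1 of 1.58 (SE 0.90, adjusted p 1), Sparc at 1.56 (SE 1.37), Col4a1 at 1.52 (SE 1.22) and Thbs1 at 1.38 (SE 0.83). The largest negative estimates were those of Dcn at −0.68 (SE 0.93) and Loxl1 at −0.46 (SE 0.95). These standard errors pool the spread of all 9 libraries. With only the 6 compared libraries in the fit, the standard error was 0.53 for Sparc (adjusted p 0.43) and 0.35 for Thbs1 (adjusted p 0.4, limma), with the same estimates. Thbs1 was the only listed gene whose 2 groups did not overlap, as deposited and after rescaling. As deposited, 11.4% of all tested genes were higher in the double-mutant livers without overlap. All 5 proteases and inhibitors had positive estimates, with a median of 0.88. The 6 collagens grouped as fibrillar, which include Col14a1 of the fibril surface, had a median of 0.19. For the 4 filament and contractile genes the median was 0.06. Without double-mutant library 1, the median over the 36 tested genes was 0.71 as deposited and 0.68 after rescaling, and still 0 were called. Without double-mutant library 3 it was −0.09 and −0.08.

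**Figure D4:**
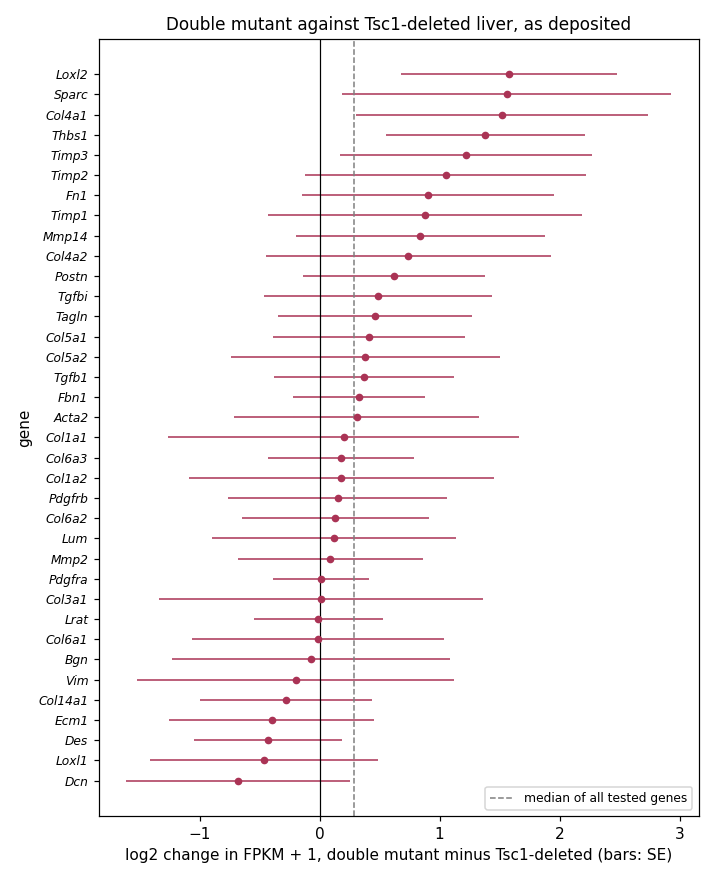
Log2 change in FPKM + 1 of the 36 tested genes in double-mutant minus Tsc1-deleted livers, as deposited (3 libraries each); points are limma estimates, bars their standard errors, the solid line 0 and the dashed line the median of all tested genes, 0.29. The points run from −0.68 for Dcn to 1.58 for Loxl2.

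The double-mutant and p53-heterozygous livers share the Trp53 allele and differ in the deletion of Tsc1 in hepatocytes. As deposited, 2 of the 36 tested genes rose and 0 fell (limma; 4 at an unadjusted p under 0.05, all positive, beside 52.7% of all tested genes), where 31.9% of all tested genes rose and 0.449% fell. Fn1 rose by 3.17 on the log2 scale (SE 1.05, adjusted p 0.0347, limma) and Loxl2 by 2.76 (SE 0.90, adjusted p 0.0326). For Fn1 the groups just failed to overlap, with the lowest double-mutant value at 78.6 FPKM and the highest p53-heterozygous value at 78.4 FPKM. The median change of the tested members was 0.52 against 1.39 over all tested genes, and the low nuclear coding totals of libraries 1 and 2 of the p53-heterozygous group enter both medians. Neither call held on a common nuclear scale: after nuclear rescaling Fn1 changed by 0.92 (SE 0.56, adjusted p 0.375) and Loxl2 by 1.87 (SE 0.81, adjusted p 0.216), and the median of all tested genes was 0.16. The call of Fn1 was lost on leaving out any library except p53-heterozygous library 3 (adjusted p 0.0503 to 0.164). The call of Loxl2 was lost without p53-heterozygous library 1 (0.116) or 2 (0.109) and without double-mutant library 1 (0.0514), 2 (0.115) or 3 (0.104).

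On the nuclear scale a different set fell. Ecm1 encodes a secreted glycoprotein that in mouse liver keeps TGF-beta in its latent form. After rescaling it read 42.3, 36.3 and 41.5 FPKM (p53-heterozygous), then 5.92, 7.11 and 6.92 FPKM (Tsc1-deleted) and 2.43, 5.03 and 8.29 FPKM (double-mutant). The p53-heterozygous values lay close together and well above all the others, including in library 3, where hepatocyte markers were low. As deposited Ecm1 read 5.30, 4.21 and 40.1 FPKM (p53-heterozygous), then 7.65, 8.72 and 9.32 FPKM (Tsc1-deleted) and 3.25, 6.54 and 10.7 FPKM (double-mutant), and the groups overlapped. In double-mutant minus p53-heterozygous livers its log2 change after rescaling was −2.83 (SE 0.39, adjusted p 0.0147, limma), and as deposited −0.62 (SE 0.85, adjusted p 0.525).

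Tagln read 37.0, 18.2 and 24.4 FPKM (p53-heterozygous) after rescaling, then 2.47, 3.38 and 4.51 FPKM (Tsc1-deleted) and 1.97, 6.23 and 8.50 FPKM (double-mutant). Des read 9.30, 5.39 and 7.14 FPKM (p53-heterozygous), then 1.70, 2.32 and 1.36 FPKM (Tsc1-deleted) and 0.225, 1.43 and 2.21 FPKM (double-mutant). Both genes were higher in all 3 p53-heterozygous libraries than in any other. Tagln fell by 2.17 (SE 0.47, adjusted p 0.0421) and Des by 1.94 (SE 0.39, adjusted p 0.0328) in the double-mutant livers. The rescaled Acta2 values were 33.9, 15.8 and 74.9 FPKM, 2.28, 4.25 and 4.49 FPKM and 1.34, 5.87 and 9.91 FPKM, without overlap, and its log2 change of −2.66 (SE 0.66) missed the threshold with an adjusted p of 0.0561. Lrat read 3.98, 1.54 and 5.81 FPKM (p53-heterozygous), then 0.606, 0.496 and 0.950 FPKM (Tsc1-deleted) and 0.118, 1.23 and 0.862 FPKM (double-mutant). Its change was −1.40 (SE 0.40, adjusted p 0.079, limma). In p53-heterozygous libraries 1 and 2 the Lrat values rest on about 37 and 10 reads. Those of Des rest on about 61 and 25, of Tagln on 130 and 45 and of Acta2 on 130 and 43. The 3 called genes were thus 3 of 36, where 1.57% of all tested genes fell and 2.15% rose after rescaling, and none of the 36 rose; at an unadjusted p under 0.05 the count was 9 of 36, with Loxl2 the positive one, beside 22% of all tested genes.

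In all, 8 listed genes were lower in every double-mutant than in every p53-heterozygous library after rescaling, where 9.56% of all tested genes were: Col14a1, Ecm1, Dcn, Acta2, Tagln, Des, Vim and Lrat. The same 8 were also higher in every p53-heterozygous library than in every Tsc1-deleted library, a pattern that 7.37% of tested genes shared and that 0 of the 38 genes showed as deposited. The median change of the 36 was −0.60 against 0.16 over all tested genes. Rescaled Dcn read 19.5, 19.1 and 22.8 FPKM in the p53-heterozygous libraries and 1.24 to 14.0 FPKM in the other 6. Rescaled Col14a1 read 7.93, 6.38 and 8.70 FPKM and 0.419 to 4.33 FPKM. For these 2 genes library 3 did not stand apart from libraries 1 and 2. Vim, at 27.0, 25.7 and 447 FPKM against 9.60 to 20.2 FPKM, owed its group mean to library 3.

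**Figure D5:**
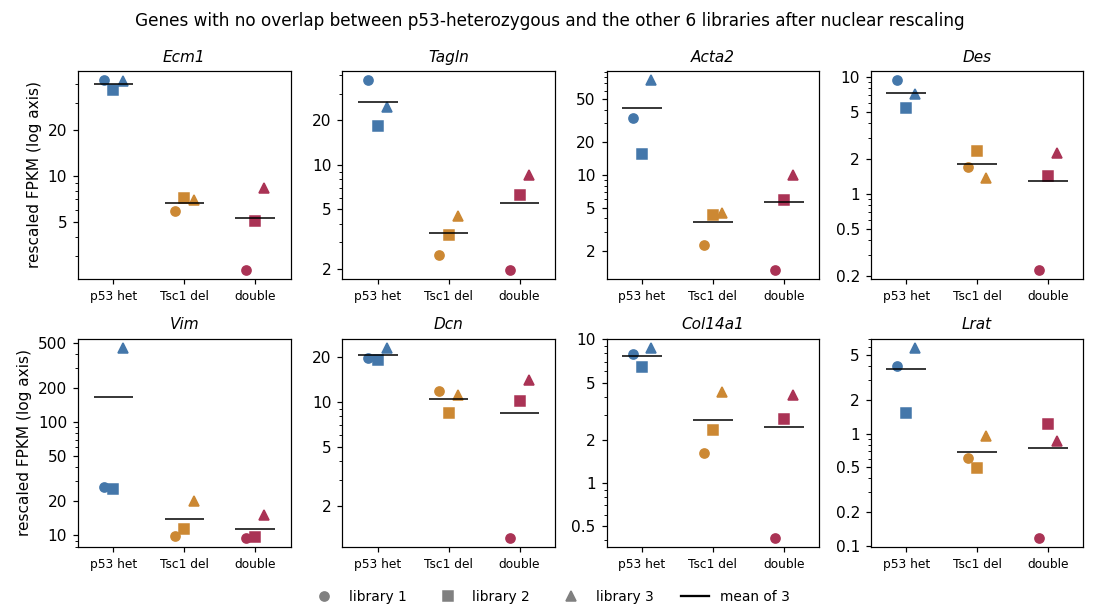
Rescaled FPKM, on a log axis, of the 8 genes whose 3 p53-heterozygous values lie above all 6 others after nuclear rescaling; marker shapes give the library number and the line the mean of 3. Ecm1, Dcn and Col14a1 have close p53-heterozygous values, and Vim and Acta2 have a high value in library 3.

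These counts depended on which p53-heterozygous libraries were used. Leaving out p53-heterozygous library 3, the tested members that rose in the double-mutant livers as deposited numbered 29 of 36, where 93.3% of all tested genes rose. After rescaling and without that library 6 rose (Mmp14, Timp1, Timp2, Sparc, Loxl2 and Thbs1) and 5 fell (Des, Vim, Ecm1, Tagln and Acta2), where 18% of tested genes rose and 6.06% fell. Leaving out p53-heterozygous libraries 1 and 2 instead, so that library 3 stood alone for its group and was taken to vary like the others, 21 fell after rescaling, where 18.4% of tested genes fell. The rescaled call of Ecm1 was lost without double-mutant library 1 (adjusted p 0.0590) or 2 (0.0616) and with only the 6 libraries compared (0.0759). That of Tagln was lost on leaving out any library except p53-heterozygous library 3 (0.0525 to 0.131), and that of Des on leaving out any except that library (0.0114) and Tsc1-deleted library 3 (0.0454). Tagln overlaps Pcsk7 and an antisense gene on the opposite strand, at 0.314 to 3.47 and 0.037 to 1.34 FPKM as deposited.

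Markers of other cells differed between the same groups after rescaling. The 10 smooth muscle markers summed to 26.5, 19.1 and 52.3 FPKM in the p53-heterozygous libraries and to 7.57 to 16.2 FPKM in the other 6. Of the 3 that passed the filter, Tpm2, a muscle tropomyosin, fell by 2.15 (SE 0.39, adjusted p 0.0275, limma). In all, 5 of the 10 were lower in every double-mutant library than in every p53-heterozygous one, as were 9.56% of all tested genes. The 5 include Myh11, Cnn1 and Lmod1, which did not pass the filter, whereas the 9.56% counts only genes that did. Myh11 stood at 5.49, 1.79 and 3.65 FPKM against at most 0.62 FPKM, and Myocd was listed at 0 in 7 of the 9 libraries. The 14 endothelial markers summed to 54.8, 63.2 and 101.6 FPKM against 7.69 to 44.1 FPKM. The 7 erythroid markers summed to 8063 and 16997 FPKM in p53-heterozygous libraries 1 and 2, to 89.6 FPKM in library 3 and to 18.2 to 367 FPKM in the others. The 18 quiescent stellate cell markers summed to 106.4, 89.4 and 189.8 FPKM against 69.0 to 185.5 FPKM, and overlapped. The 12 lymphocyte markers, 3 of which passed the filter, summed to 18.0, 47.8 and 22.3 FPKM against 1.97 to 9.38 FPKM, without overlap. The part of these cell types in the change of Ecm1, Tagln and Des, and in the values of Vim and the other genes that separated the groups, was not tested.

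Tsc1-deleted and p53-heterozygous livers carry different single changes. As deposited 0 of 36 listed genes were called (limma), where 12.2% of all tested genes were called in either direction; 1 gene, Fn1, had an unadjusted p under 0.05, beside 33.5% of all tested genes. The median change was 0.41 against 1.07 over all tested genes. After nuclear rescaling 0 of 36 were called, beside 0.175% of all tested genes, and 7 of 36 had an unadjusted p under 0.05, beside 16.8% of all tested genes. The median was −0.86 against −0.10, with 31 of 36 estimates negative. Ecm1 had a log2 change of −2.42 (SE 0.39, adjusted p 0.0523), Tagln of −2.60 (SE 0.47, adjusted p 0.0558), Acta2 of −2.96 (SE 0.66, adjusted p 0.0763) and Des of −1.55 (SE 0.39, adjusted p 0.0996). Without overlap 10 genes were lower in the Tsc1-deleted libraries, where 11.9% of tested genes were: the 8 named above, Lum and Col6a1. With median-ratio rescaling Ecm1, Tagln and Acta2 were called as lower, where 131 of the 12014 tested genes fell. Without p53-heterozygous library 3, 27 of 36 rose as deposited, where 89.4% of tested genes rose, and after rescaling 4 fell (Des, Ecm1, Tagln and Acta2), where 4.03% fell. Without libraries 1 and 2 of that group 26 fell after rescaling, where 26.6% of tested genes fell. Both this comparison and the previous one use the same p53-heterozygous libraries, so the likeness of their values is not independent.

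The wider pathway was read from lists of other genes. In double-mutant against Tsc1-deleted livers, 0 of the 168 tested genes of the 16 lists were called (limma), with 11 at an unadjusted p under 0.05 on either scale, beside 2.13% of all tested genes as deposited and 4.26% after rescaling. Against p53-heterozygous livers as deposited, 5 of 31 other matrix genes rose, among them Spp1 (osteopontin, 4.75, SE 1.46, adjusted p 0.0274), Prelp (a small proteoglycan, 3.52, SE 0.83, adjusted p 0.0112), Col18a1 (a basement membrane collagen, 3.40, SE 0.85, adjusted p 0.0139) and Vtn (vitronectin, a plasma protein of hepatocytes, 3.30, SE 0.83, adjusted p 0.0143). Of 16 collagen processing enzymes 4 rose, led by P4hb, a subunit of prolyl hydroxylase, at 3.53 (SE 0.96, adjusted p 0.0186). Among 17 genes of TGF-beta and PDGF signalling 2 rose: Bambi, a decoy receptor of TGF-beta, by 1.33 (SE 0.38, adjusted p 0.0211), and Pdgfc, a PDGF ligand, by 1.74 (SE 0.64, adjusted p 0.0466). None of these held after nuclear rescaling, and 31.9% of all tested genes rose as deposited.

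After rescaling, the genes of these lists that rose in the double-mutant livers were 2 of 12 other proteases and inhibitors and 2 of 6 portal fibroblast markers, where 2.15% of all tested genes rose. Mmp7, the metalloproteinase matrilysin, rose by 4.19 (SE 0.70, adjusted p 0.0245) and Mmp15, a membrane-bound metalloproteinase, by 1.85 (SE 0.36, adjusted p 0.0297). Entpd2, an ectonucleotidase of portal fibroblasts, rose by 2.88 (SE 0.58, adjusted p 0.0328) and Gas6, a ligand of the receptor Axl, by 1.97 (SE 0.41, adjusted p 0.0355). After rescaling Entpd2 read 1.60, 2.27 and 4.597 FPKM (p53-heterozygous), then 5.23, 2.40 and 13.8 FPKM (Tsc1-deleted) and 38.9, 15.0 and 28.5 FPKM (double-mutant). Its double-mutant values lay above all others, although library 1 of that group was low for most of the 38 genes. Markers of cholangiocytes, the cells of the bile ducts, were compared as well. Of their 9 tested markers 7 rose in the double-mutant livers as deposited and 0 after rescaling (limma; 5 at an unadjusted p under 0.05, all 9 estimates positive, median 1.84). Rescaled Epcam read 1.17, 2.41 and 11.05 FPKM (p53-heterozygous) and 22.8, 12.1 and 25.4 FPKM (double-mutant). Rescaled Cldn7 was listed at 0 in p53-heterozygous libraries 1 and 2 and read 2.69 FPKM in library 3, then 9.09, 2.99 and 14.3 FPKM (double-mutant). Krt19 and Krt7 instead peaked in p53-heterozygous library 3. Rescaled Krt19 read 1.39, 2.46 and 216.9 FPKM (p53-heterozygous) and 25.6, 10.4 and 37.6 FPKM (double-mutant). Rescaled Krt7 read 0.232, 0.1605 and 44.1 FPKM (p53-heterozygous) and 6.85, 2.6 and 7.645 FPKM (double-mutant). Krt7 was picked out after its values were seen. The sum of the 11 markers, which include Spp1, was 121.5, 89.0 and 1999 FPKM against 2786, 780.5 and 1278 FPKM, and overlapped. Their part in the rises of Mmp7, Entpd2 and Spp1 was not tested. The other portal fibroblast marker Thy1 stood at 2.97, 7.08 and 10.5 FPKM against 0.918 to 2.21 FPKM in the double-mutant libraries. Of the 11 tested quiescent stellate cell markers 1, the lipid droplet protein Plin2, rose as deposited (3.09, SE 0.93, adjusted p 0.0254) and 0 changed after rescaling. In Tsc1-deleted against p53-heterozygous livers, the matrix, protease, stellate cell and portal fibroblast genes Col18a1, Omd, Vtn, Mmp7, Mmp15, Mmp19, Plin2 and Gas6 rose as deposited and 0 of the 168 were called after rescaling (limma), with 22 at an unadjusted p under 0.05, beside 16.8% of all tested genes.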

How the data were processed

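RNA of 9 mouse liver libraries was measured by sequencing. Per the labels' protocols, total RNA was extracted with TRIzol and depleted of ribosomal RNA, then read for 50 cycles from 1 end on a HiSeq instrument. The molecule label reads polyA RNA, which differs from that protocol. Per the submitters' processing notes the authors used cutadapt, STAR and StringTie with the mouse build mm9. Their versions are not given in the sources used here. The deposited FPKM values (1 per gene and library, replicates not pooled) carry no unit in the header; the unit was read from the values. No counts are used, and depth was estimated from the value that 1 read gives in short genes with 1 exon, so depth and reads behind a value are approximate.

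Gene identifiers were matched to symbols with GENCODE mouse release 21 (52403 of 52550), which describes a later build; no coordinates of the files' genes are printed. Nuclear rescaling multiplied each library by a factor (0.742 to 8.618) that gave all libraries the same total FPKM over nuclear protein-coding genes. The 12014 genes that passed the filter were tested with limma (version 3.58.1, run in R 4.3.3) on log2(FPKM + 1), with its trend and robust options. A fold on this scale understates the change of low genes. All 9 libraries entered 1 fit without covariates; calls are Benjamini-Hochberg adjusted p under 0.05 over all tested genes. Values as deposited are the main result, and the rescaled values stand beside it. The limma step was run on simulated data whose spread came from the Tsc1-deleted and double-mutant libraries only. That run cannot speak to the spread among the p53-heterozygous libraries. Other settings were the 6 libraries compared, median-ratio and quantile scaling, pseudocounts of 0.1 and 5, no filter, a minimum of 5 FPKM, limma without those options, a replicate block, and leaving out libraries.

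All 38 listed genes are named; from the 16 further lists (246 genes) up to 4 called genes with the largest change and the 3 with the highest mean could be named. The members and lists were chosen with earlier results of these data known. Promoter sequences came from RefSeq. Tables and figures were made with Python 3.11.15, pandas 2.3.3, numpy 2.4.6 and matplotlib 3.10.9.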

Additional observations from a re-analysis of the deposited data

How the results depend on the processing

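In double-mutant minus Tsc1-deleted livers the count of called listed genes stayed at 0 under all 31 alternatives. In double-mutant minus p53-heterozygous livers the count of 2 became 0 with the 6 libraries compared, on both scales. Of the 12014 tested genes, 1127 were then called as deposited and 37 after rescaling. Without the filter the count was 0, where 1142 of 27774 genes were called. It was 5, all lower, with median-ratio scaling, where 370 of the 12014 fell, and 5, all lower, with quantile scaling, where 462 fell. Leaving out 1 library gave 0 to 29 as deposited. The 29 came without p53-heterozygous library 3, where 11213 of the 12014 rose. In Tsc1-deleted minus p53-heterozygous livers the count of 0 became 3, all lower, with median-ratio scaling, where 131 of the 12014 tested genes fell. With quantile scaling it became 1, lower, where 64 fell. It was 0 to 27 on leaving out 1 library each time as deposited. The 27 came without p53-heterozygous library 3, where 10746 of the 12014 rose. With p53-heterozygous libraries 1 and 2 left out after rescaling, the counts were 21 and 26, all lower. The causes were not tested, beyond fewer libraries or more genes tested by construction.

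With the replicate block the count in double-mutant minus p53-heterozygous livers was 7, all higher, as deposited, where 5897 of the 12014 tested genes rose. After rescaling with that block it was 4, all lower, where 187 of the 12014 fell. No other count of called listed genes changed. The numbers pair nothing that the labels name, and deviations of same-numbered libraries correlated at −0.197 to 0.317 as deposited.

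Estimates that changed sign and passed the threshold were these. The ranges on leaving out 1 library span both scales: every low end comes from a rescaled fit without p53-heterozygous library 1 or 2 and every high end from a fit as deposited without library 3, so scaling and library changed together. As deposited alone, Vim ranged from −1.47 to 1.91 and from −1.27 to 2.11 in the 2 comparisons, and Des, whose rescaled estimates were all negative (−1.73 to −1.38), from −0.34 to 0.80. In double-mutant minus p53-heterozygous livers: Col5a1 −1.41 to 1.29, Col6a1 −2.35 to 1.60, Postn −1.21 to 1.11 and Vim −3.19 to 1.91. Rescaled without libraries 1 and 2 of that group: Col1a1 −4.84, Col1a2 −4.43, Col3a1 −4.43, Col6a2 −2.82, Fbn1 −1.86, Thbs1 −2.55, Lum −2.90, Loxl1 −3.40, Timp1 −4.25, Timp2 −2.46, Pdgfrb −2.36 and Tgfb1 −2.14. In Tsc1-deleted minus p53-heterozygous livers: Col1a2 −2.15 to 2.11, Col5a1 −1.77 to 0.89, Col6a1 −2.34 to 1.62, Col6a2 −1.49 to 1.16, Timp1 −1.69 to 1.96, Vim −2.98 to 2.11 and Des −1.73 to 0.80. Rescaled without libraries 1 and 2: Col1a1 −5.02, Col3a1 −4.45, Col4a2 −3.10, Tgfbi −1.64, Sparc −3.41, Lum −3.01, Loxl1 −2.97, Timp2 −3.46, Timp3 −2.44, Mmp14 −2.16, Des −1.56, Pdgfrb −2.50 and Tgfb1 −2.48. About 700000 to 1000000 nuclear coding reads limit the values of p53-heterozygous libraries 1 and 2, where most listed genes rest on few reads.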
